A study of Mus musculus with 12 samples.

Results

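The genes carried by mouse mitochondrial DNA were taken as all rows of the count table whose gene symbol begins with mt-, without regard to their values. They made up 32 of the 25116 rows, with 13 mRNAs and 19 tRNAs. GENCODE annotates 37 mitochondrial genes, and the remaining 5, which are both ribosomal RNAs (mt-Rnr1 and mt-Rnr2) and the tRNAs mt-Ts1, mt-Td and mt-Tk, were not analysed here. Counts came from bulk RNA-seq of 12 tumours of E0771, a triple-negative mouse breast cancer line, that grew in the mammary fat pads of C57BL/6J mice and were taken at day 22. All hosts, controls included, carried Tie2CreER, a recombinase that is driven by the Tie2 promoter of endothelial cells and needs tamoxifen to act, together with ERKi, an inducible knock-in gene for endorepellin, the C-terminal fragment of the basement membrane proteoglycan perlecan. The 7 induced tumours came from hosts given tamoxifen and the 5 control tumours from hosts given a control injection. Tamoxifen and the induced gene therefore cannot be told apart, and the alleles belong to the hosts, so the knock-in gene could be switched on in host cells alone and not in the tumour cells, which are a single line. The labels do not say whether each tumour came from its own mouse, so p-values measure the spread between these samples.

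Mitochondrial DNA is a small circle with almost no space between its genes. It encodes core subunits of respiratory complexes I, III and IV and of the ATP synthase, along with the rRNAs and tRNAs that translate them, while every other mitochondrial protein comes from the nucleus. Both strands are copied as long precursors that are cut mainly at the tRNAs, and most of the mRNAs then receive a short poly(A) tail. Pieces of mitochondrial DNA have also been inserted into the nuclear chromosomes during evolution, and some of these nuclear copies are still almost letter for letter the same.

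Total counts were 18993192 to 28372821 per tumour, and 21350 to 24087 genes had at least 1 count. The endothelial markers Pecam1, Cdh5, Tek, Kdr, Emcn, Esam and Cldn5 summed to 93.2 to 140.4 CPM, a unit in which counts are divided by the library size, corrected with edgeR's TMM factors. Epithelial markers were low, at 1.68 to 6.66 CPM in sum for Epcam, Krt8, Krt18, Krt19 and Cdh1, of which 3 of 5 had enough counts to be tested. Summed fibroblast markers ranged from 552 to 3524 CPM and summed skeletal muscle markers from 10.1 to 711 CPM, so these marker sums differed widely between tumours.

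The members differ in how closely nuclear chromosomes copy them. On the GRCm38 build, bases 6390 to 11042 of mitochondrial DNA, a stretch of 4653 bases, are repeated on the minus strand of chromosome 1 as 7 annotated nuclear copies between 24611535 and 24616197, in the same order as on the circle and with the same spacing to within 1 base. The copies are Gm29216 (of mt-Co1), Gm28661 (of mt-Co2), Gm10925 (of mt-Atp6), Gm28437 (of mt-Co3), Gm28438 (of mt-Nd3), Gm10222 (of mt-Nd4l) and Gm28439 (of mt-Nd4). The first 100 bases of mt-Co2, which encodes a subunit of cytochrome c oxidase, at chrM:7013-7112 on the plus strand, and of Gm28661 at chr1:24615466-24615565 on the minus strand, are identical.
mt-Co2: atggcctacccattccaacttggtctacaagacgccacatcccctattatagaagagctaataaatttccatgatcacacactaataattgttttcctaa
Gm28661: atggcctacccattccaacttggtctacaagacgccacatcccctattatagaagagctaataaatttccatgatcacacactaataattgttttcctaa
The first 100 bases of mt-Nd3, a complex I subunit, at chrM:9459-9558 on the plus strand, and of Gm28438, at chr1:24613020-24613119 on the minus strand, differ at the base in capitals, T3C, counted from the start of the gene with the mitochondrial base first.
mt-Nd3: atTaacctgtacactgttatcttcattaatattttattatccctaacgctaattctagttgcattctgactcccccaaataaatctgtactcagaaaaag
Gm28438: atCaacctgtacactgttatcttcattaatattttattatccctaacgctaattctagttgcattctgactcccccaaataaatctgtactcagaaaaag

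Outside that stretch the closest annotated nuclear copies are less alike, at 92.9% to 96.7% identity for mt-Nd2, mt-Nd5, mt-Nd6 and mt-Cytb, and none was found for mt-Nd1. The pair shown is mt-Cytb, which encodes the complex III subunit cytochrome b, at chrM:14344-14443 on the plus strand, and its copy Gm11410 at chr4:80004188-80004287 on the plus strand. Capitals mark T207C, T210C and C255T, counted from the start of mt-Cytb.
mt-Cytb: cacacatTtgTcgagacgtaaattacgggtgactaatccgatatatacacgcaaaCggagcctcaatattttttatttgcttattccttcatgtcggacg
Gm11410: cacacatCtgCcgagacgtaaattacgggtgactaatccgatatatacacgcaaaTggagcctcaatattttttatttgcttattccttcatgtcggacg
Among the tRNAs, mt-Tp for proline carried most of the counts and is shown whole, at chrM:15356-15422 on the minus strand, with its anticodon in capitals. The tRNA for asparagine, mt-Tn, at chrM:5089-5159 on the minus strand, had the lowest correlation with the mRNAs among the members with over 1000 counts and is set beside the matching part of a transcript of Cep295, a centrosome gene of chromosome 9. The capitals mark T6G, T15A, A17G, C37T, A40C and A55G, counted from the first base of mt-Tn.
mt-Tp: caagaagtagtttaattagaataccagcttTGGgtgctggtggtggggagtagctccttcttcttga
mt-Tn: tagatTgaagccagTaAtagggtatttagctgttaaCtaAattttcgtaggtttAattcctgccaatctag
Cep295: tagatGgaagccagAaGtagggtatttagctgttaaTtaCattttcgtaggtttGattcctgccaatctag

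Transcript levels of the mRNAs were compared per length, as CPM per kilobase over all 12 tumours, and they fell into 2 widely separated ranges. The complex IV subunit mt-Co1 was highest at 7076 ± 3084 CPM per kilobase (SD, n = 12), followed by mt-Cytb at 2727 ± 1279. Of the complex I subunits, mt-Nd1 had 1538 ± 766, mt-Nd2 1313 ± 648, mt-Nd6 807 ± 370, mt-Nd4 687 ± 351 and mt-Nd5 676 ± 275 CPM per kilobase. The other complex I subunits were far lower, with mt-Nd3 at 13.8 ± 9.07 and mt-Nd4l at 7.11 ± 4.46 CPM per kilobase. Both mitochondrial subunits of the ATP synthase were lower still, with mt-Atp6 at 2.23 ± 1.12 and mt-Atp8 at 1.97 ± 0.961. The same was true of the other complex IV subunits, mt-Co2 at 1.66 ± 0.646 and mt-Co3 at 1.51 ± 0.827 CPM per kilobase. Alone among the mRNAs, mt-Nd6 lies on the minus strand. The sources used here do not give whether counting used strand. RNA from the strand opposite mt-Nd6 therefore cannot be told apart from its mRNA, and its value is uncertain.

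The order was the same in all 12 tumours for most neighbours in this ranking. Exceptions were mt-Nd4 above mt-Nd5, which held in 7 of 12 tumours, mt-Atp6 above mt-Atp8 in 8, mt-Atp8 above mt-Co2 in 6 and mt-Co2 above mt-Co3 in 7, and these neighbours were not separated beyond their spread. The step from mt-Nd5 to mt-Nd3 was 48.9-fold and held in every tumour. Cytochrome c oxidase needs its mitochondrial subunits together, yet mt-Co1 had 149722 to 369942 counts per tumour and mt-Co2 16 to 38, a ratio of 7880 to 13700.

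**Figure D1:**
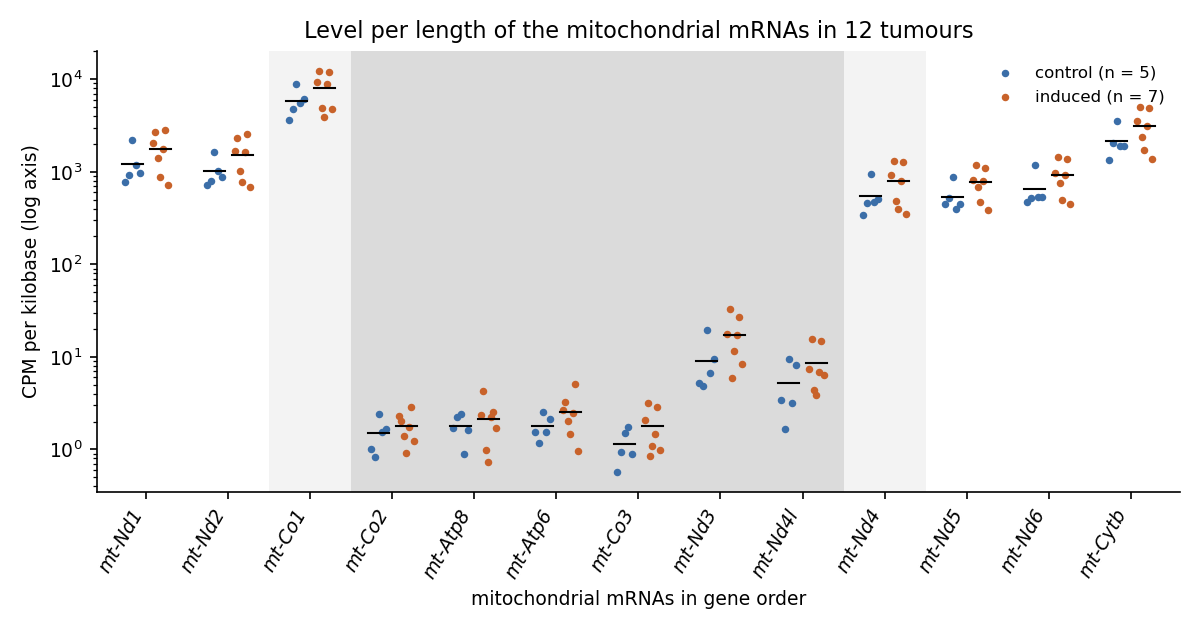
Level of the 13 mitochondrial mRNAs as CPM per kilobase on a log axis, in gene order, with 1 point per tumour (control n = 5, induced n = 7) and a black line at each group mean. Dark shading marks the 6 mRNAs that lie wholly in the stretch repeated on chromosome 1, with means of 1.51 to 13.8, and light shading marks mt-Co1 and mt-Nd4, which lie partly in it.

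Each of the 6 low mRNAs, mt-Co2, mt-Atp8, mt-Atp6, mt-Co3, mt-Nd3 and mt-Nd4l, lies wholly inside the stretch repeated on chromosome 1, with 4 to 221 counts per tumour. The 5 mRNAs wholly outside it had 5923 to 110898 counts. The remaining members, mt-Co1 and mt-Nd4, lie across its edges and had 12632 to 369942 counts. Without overlap, the lowest value of any outside mRNA in any tumour was 11.8 times the highest value of any inside mRNA, in CPM per kilobase. mt-Co1 has 483 bases inside and 1062 outside, and mt-Nd4 has 876 inside and 502 outside. Set against the outside bases alone, the levels of mt-Co1 and mt-Nd4 were 10294 and 1887 CPM per kilobase.

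Identity with a nuclear transcript was near complete for 5 of the 6 low mRNAs. Of all runs of 50 bases in each gene, an identical match in another annotated transcript was found for 100% in mt-Co2, 99.9% in mt-Co3, 99.5% in mt-Atp6, 98.8% in mt-Nd4l and 98.0% in mt-Nd3. The share was 62.2% in mt-Nd4, 51.1% in mt-Co1, 8.2% in mt-Nd2 and 7.6% in mt-Nd5. It was 0% in mt-Nd1, mt-Nd6, mt-Cytb and mt-Atp8. By level over the whole gene length, mt-Co1 with a share of 51.1% was the highest of all. On that measure mt-Nd4 with 62.2% was level with mt-Nd5 with 7.6%. Set against its outside bases alone, mt-Nd4 was at 1887 CPM per kilobase. mt-Atp8 was low, and no annotated copy of it was found beyond the 43 bases it shares with mt-Atp6. mt-Atp8 lies in the repeated stretch between mt-Co2 and mt-Atp6, and the chromosome 1 sequence between the annotated copies was not searched. The sources used here do not give how reads that match several places were counted, and the part of such reads in the low counts was not tested. Values of the 6 inside mRNAs are therefore uncertain.

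The nuclear copies were themselves counted, and often more than the mitochondrial gene. Summed over the tumours, Gm28438 had 5.24 times the counts of mt-Nd3, with 240 to 984 counts against 41 to 221, and was higher in 12 of 12 tumours. Gm28437 had 3.93 times the counts of mt-Co3 and Gm28661 1.85 times those of mt-Co2, again higher in 12 of 12 tumours. Gm10222 had 1.18 times the counts of mt-Nd4l and was higher in 8 of 12. All 7 chromosome 1 copies together held only 0.208% as many counts as the members, so adding these counts to the members would change the counted totals little. Reads left out of both would be in neither sum, and their number is not given. A further copy of mt-Co1, Gm13340 on chromosome 2, matches all 1545 bases at 97.6% identity and had 16 to 60 counts. Across the 12 tumours their log2 CPM followed the mean of the 7 well-counted mRNAs with Pearson correlations of 0.728 to 0.951, a description in which both sides share the libraries.

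The tRNA rows were low, and mt-Tp, the tRNA for proline, held 55.3% of all tRNA counts, from 44.5% in control 3 to 63.5% in induced 4. Its gene follows those of cytochrome b and the threonine tRNA on the circle and lies on the opposite strand. It had 524 to 1721 counts per tumour, 6.46 times the counts of mt-Tn per length, and was first in 12 of 12 tumours. The tRNAs for asparagine (mt-Tn), glutamate (mt-Te) and leucine (mt-Tl1 and mt-Tl2) came next, and neighbours among these were in the same order in only 6 to 8 of 12 tumours. The tRNAs for isoleucine (mt-Ti), glutamine (mt-Tq), methionine (mt-Tm), tryptophan (mt-Tw), glycine (mt-Tg) and threonine (mt-Tt) had too few counts to be tested, with at most 22 in any tumour. The sources used here do not give whether counting used strand, so RNA from the opposite strand of mt-Tp or of the other tRNA genes cannot be told apart from the tRNA. Nor do the counts separate cut tRNAs from uncut precursors, and the libraries were an mRNA-seq preparation. The values are therefore counts on tRNA genes and not levels of finished tRNAs.

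**Figure D2:**
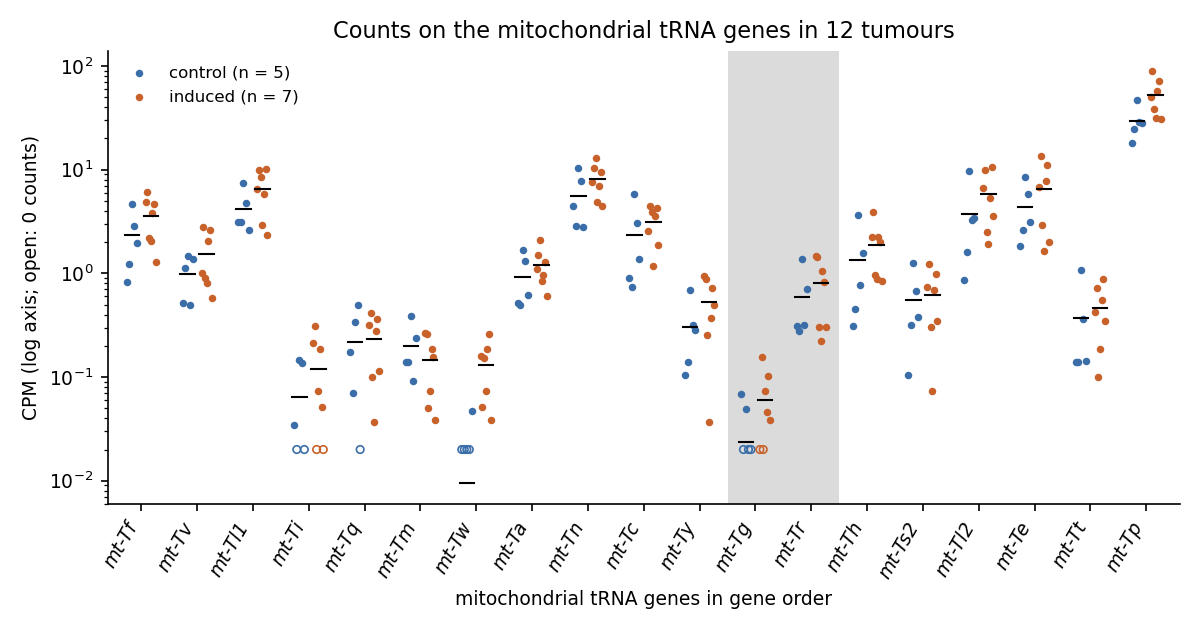
Counts on the 19 mitochondrial tRNA genes as CPM on a log axis, in gene order, with 1 point per tumour, open circles for tumours with 0 counts, and a black line at each group mean. Grey shading marks mt-Tg and mt-Tr in the stretch repeated on chromosome 1, and mt-Tp stands above the other tRNAs with a mean of 43.0 CPM.

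The share of all counts that fell on the 32 members differed 3.16-fold among the tumours. It is a share of reads as counted. The rRNAs are not among the members and the mRNAs inside the repeated stretch are uncertain. The share and its parts are therefore not the full mitochondrial RNA content. In the control tumours it was 1.08%, 1.39%, 2.49%, 1.42% and 1.502% for replicates 1 to 5. The induced tumours had 2.54%, 3.34%, 1.51%, 1.24%, 2.33%, 3.41% and 1.08% for replicates 1 to 7. Induced 2 and induced 6 were highest, control 1 and induced 7 were lowest, and the groups overlapped. The mean share was 1.57% ± 0.537 in control tumours (SD, n = 5) and 2.21% ± 0.961 in induced tumours (SD, n = 7), with 4 of 7 induced tumours above the control mean. In bulk tissue, fewer cells of a type and less RNA per cell cannot be told apart. The exact 95% Clopper-Pearson interval, which covers counting error only, was 1.07% to 1.08% in control 1 and 3.40% to 3.41% in induced 6, which is far narrower than the spread between tumours.

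**Figure D3:**
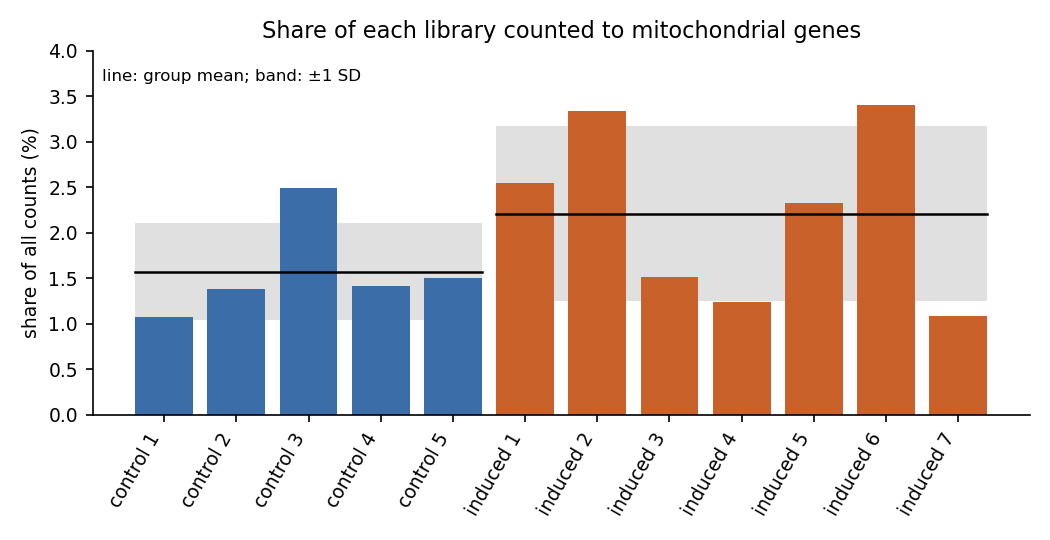
Share of all counts, in percent, that fell on the 32 mitochondrial genes in each tumour (bars, axis from 0), with a line at each group mean and a band of 1 SD either side. The control tumours range from 1.08% to 2.49% and the induced tumours from 1.08% to 3.41%.

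Nearly all of this share came from the 7 well-counted mRNAs mt-Nd1, mt-Nd2, mt-Co1, mt-Nd4, mt-Nd5, mt-Nd6 and mt-Cytb, which held 99.5% of the members' counts. mt-Co1 alone held 56.1%, from 50.3% in induced 3 to 62.0% in induced 7. The 6 mRNAs and 2 tRNAs inside the repeated stretch held 0.0592%, and all tRNAs 0.398%. For each pair among the 7 mRNAs, log2 CPM moved closely together across the 12 tumours, with Pearson correlations of 0.876 to 0.987. As an example, mt-Nd1, near the start of the circle, had 46.6 counts per 100 counts of mt-Cytb, near its end. The coefficient of variation of this ratio was 9.16%. It was larger, at 21.3%, for mt-Nd5 counts per 100 mt-Co1 counts.

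Control and induced tumours were compared gene by gene with edgeR's quasi-likelihood test, with Benjamini-Hochberg adjustment over all 15199 genes tested and a threshold of 0.05. Of the 32 members, 26 had enough counts, and none passed the threshold, against 0% of all genes tested. By unadjusted p under 0.05, 1 of 26 members was higher, against 0.592% of all genes higher and 2.13% past it in either direction. That count moved when single tumours were left out, with 14 of 26 members (and 670 of 15607 genes) without control 3 and 6 of 25 members (and 230 of 15128 genes) without induced 7, and still none past the threshold. The estimate was above 0 for 26 of 26 members tested, where 49.8% of all genes were above 0, and the mean CPM of 31 of all 32 was higher in induced tumours. These members share their libraries and vary together, so the count of directions is not 26 separate observations. Their median log2 fold change was 0.54, for the 13 mRNAs alone 0.54 and for the 13 tRNAs tested 0.58, beside a median of all genes tested near 0. The groups overlapped for each of the 32 members.

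mt-Co1, the catalytic subunit of complex IV, had 5582, 7286, 13754, 8520 and 9452 CPM in control replicates 1 to 5. In the induced tumours it ran from 6089 through a median of 13639 to 19068 CPM. Control 3 thus lay above the induced median, and the lowest induced tumour lay near the lowest control tumour. The means were 8919 ± 3067 CPM (SD, n = 5) for control and 12371 ± 5436 CPM (SD, n = 7), a log2 difference of 0.47 with a standard error of 0.33 and an adjusted p of 0.999886 in edgeR.

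mt-Cytb of complex III had 1543, 2353, 4010, 2180 and 2175 CPM in the control tumours and 1591 to 5716 CPM in the induced tumours, with a median of 3537. Again control 3 was above the induced median. The log2 difference was 0.55 with a standard error of 0.33.

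The complex I subunit mt-Nd5 had 823, 957, 1603, 723 and 820.5 CPM in the control tumours and 703 to 2151 CPM in the induced tumours, with a median of 1433. The lowest of all was an induced tumour, number 7. Its log2 difference was 0.52 with a standard error of 0.29. Other well-counted subunits of complex I had differences of 0.59 (mt-Nd2), 0.54 (mt-Nd1 and mt-Nd4) and 0.51 (mt-Nd6), with standard errors of 0.32 to 0.36, each less than 2 standard errors.

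mt-Tp was the member with an unadjusted p under 0.05. It had 18.2, 24.6, 47.1, 28.7 and 28.4 CPM in control replicates 1 to 5. Its induced values ran from 30.7 to 88.7 CPM with a median of 50.4. All 7 induced tumours were above the control mean, and control 3 overlapped with them. The control mean was 29.4 ± 10.8 CPM (SD, n = 5) and the induced mean 52.8 ± 21.8 CPM (SD, n = 7), a log2 difference of 0.84 with a standard error of 0.30. In edgeR its unadjusted p was 0.0133 and its adjusted p 0.999886.

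Relative to mt-Cytb, a neighbour on the circle that varied with the share as a whole, mt-Tp had 1.204 ± 0.112 counts per 100 mt-Cytb counts in control tumours (SD, n = 5) and 1.52 ± 0.234 in induced tumours (SD, n = 7). All 7 induced tumours were above the control mean, and the groups overlapped, with a control maximum of 1.32 and an induced minimum of 1.24. All tRNAs together were 0.356% ± 0.0584 of member counts in control tumours (SD, n = 5) and 0.428% ± 0.0451 in induced tumours (SD, n = 7), also overlapping. No test was made of these ratios, which were chosen after the values had been seen.

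The highest estimate belonged to mt-Nd3, one of the mRNAs with a near-identical nuclear copy. It had 1.80, 1.68, 6.74, 2.32 and 3.30 CPM in the control tumours and 2.07 to 11.4 CPM in the induced tumours, with a median of 6.01. Its log2 difference was 0.92 with a standard error of 0.46 and an unadjusted p of 0.0676 in edgeR. Other members inside the repeated stretch had differences of 0.72 (mt-Nd4l), 0.66 (mt-Co3), 0.52 (mt-Atp6), 0.44 (mt-Tr), 0.27 (mt-Co2) and 0.24 (mt-Atp8), and none had an unadjusted p under 0.05. For the 7 chromosome 1 copies the estimates were 0.30 to 0.92, and none passed the threshold.

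The lowest estimate was 0.19, for the serine tRNA mt-Ts2, and it turned to −0.10 without control 1. Between these ends lay the tRNAs for tyrosine (mt-Ty, 0.80), leucine (mt-Tl1, 0.64), phenylalanine (mt-Tf, 0.63), valine (mt-Tv, 0.62), leucine (mt-Tl2, 0.62), glutamate (mt-Te, 0.58), asparagine (mt-Tn, 0.52), histidine (mt-Th, 0.47), cysteine (mt-Tc, 0.41) and alanine (mt-Ta, 0.39). Estimates of these low tRNAs moved with single tumours. Without control 3 they were 1.26 for mt-Th, 1.33 for mt-Tl2, 1.04 for mt-Tc and mt-Tf, and 0.69 for mt-Ta. Over the removal of each tumour in turn the lowest estimates were 0.19 for mt-Th, 0.36 for mt-Tl2, 0.17 for mt-Tc and 0.20 for mt-Ta.

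**Figure D4:**
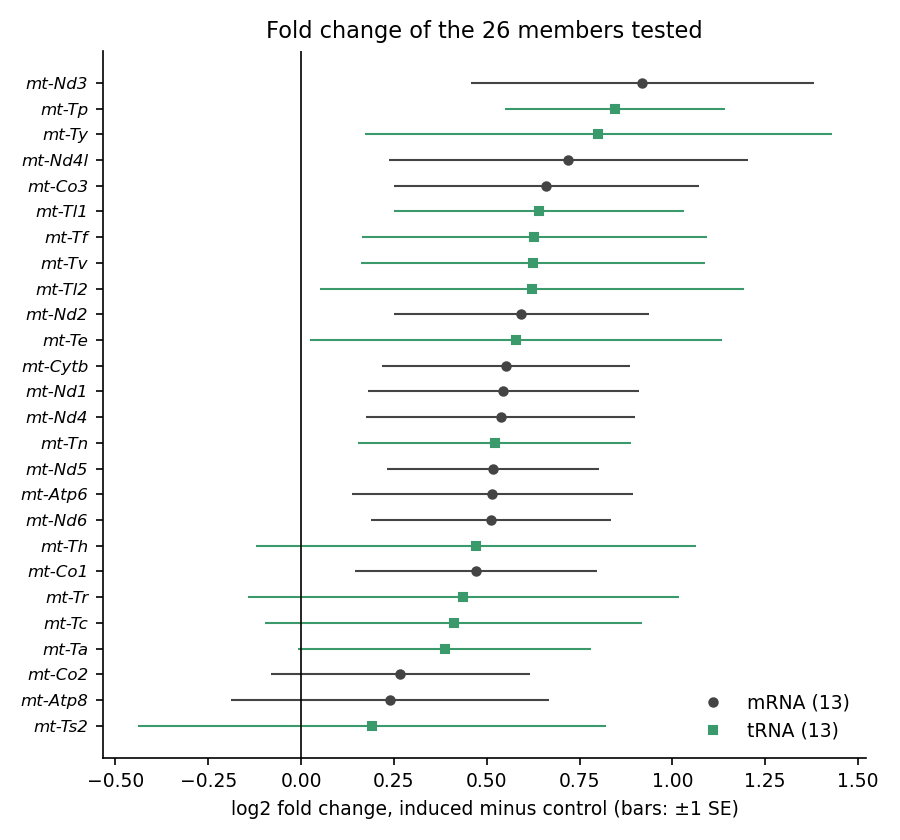
Log2 fold change, induced minus control, of the 26 members tested, with bars of 1 standard error either side, circles for the 13 mRNAs and squares for the 13 tRNAs. All points lie right of 0, between 0.19 for mt-Ts2 and 0.92 for mt-Nd3, and none passed the threshold.

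Other RNA of the libraries moved with the members. Malat1 and Neat1, long RNAs that stay in the nucleus, summed to 1483, 1659, 4692, 1754 and 1846 CPM in control replicates 1 to 5. In the induced tumours they summed to 1282 to 4760 CPM, with a median of 2437. The 5 tumours with the highest sums, induced 6, control 3, induced 2, induced 1 and induced 5, were also the 5 with the highest share of counts on the members. Both genes were higher in induced tumours by estimate, with log2 differences of 0.34 (standard error 0.46) for Malat1 and 0.16 (standard error 0.15) for Neat1, and neither passed the threshold. Neither marker was at 0 in any tumour, and the part of this RNA in the members' share was not tested. RNAs that lack a poly(A) tail also differed between tumours. Replication-dependent histone genes, of which 17 of 31 tested were higher by estimate, summed to 106 to 130.3 CPM in control and 109 to 164 CPM in induced tumours. The RNA polymerase III transcripts Rn7sk, Rmrp, Rpph1, Rny1 and Rny3, of which 2 of 3 tested were higher, summed to 4.27 to 15.6 CPM in control tumours and 3.06 to 26.03 CPM in induced ones. Induced 1, induced 2 and induced 6 had the 3 highest sums of both, and the part of these RNAs in the share was not tested.

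Fibroblast markers were highest in 4 tumours that also had the highest ratios of mt-Nd5 to mt-Co1. This ratio is one of many possible between the mRNAs. It was not planned beforehand, and no test was made of it. Counts of mt-Nd5 per 100 counts of mt-Co1 were 14.8, 13.1, 11.7, 8.49 and 8.68 in control replicates 1 to 5 and 10.2, 11.3, 16.4, 14.1, 10.5, 10.8 and 9.66 in induced replicates 1 to 7. The 4 highest ratios belonged to induced 3, control 1, induced 4 and control 2. The same 4 tumours had the highest sums of the 7 fibroblast markers Col1a1, Col1a2, Col3a1, Dcn, Lum, Pdgfra and Postn, at 1206, 3524, 2136 and 1242 CPM, while the others had 552 to 1003 CPM. Their shares of counts on the members were 1.51%, 1.08%, 1.24% and 1.39%, below the mean of all tumours of 1.94%. This was not particular to them. Control 4 (1.42%), control 5 (1.502%) and induced 7 (1.08%) were also below that mean, with fibroblast sums of 824, 1003 and 686 CPM. None of the 7 markers was at 0 in all tumours. By estimate 0 of 7 were higher and 7 of 7 lower in induced tumours, with none past the threshold. Of all genes tested, 49.8% were higher. Group means of the ratio were 11.3 ± 2.75 (SD, n = 5) and 11.9 ± 2.46 (SD, n = 7). Leukocyte markers were lower by estimate for 4 of 4 genes, macrophage markers for 7 of 7 and neutrophil markers for 4 of 4 tested, with none past the threshold. Markers of a cell type share the libraries, so these directions are not separate observations. Control 1 was highest for leukocyte and macrophage markers, at 548 and 1299 CPM. The other control tumours had 128 to 183 and 180 to 305 CPM. Leukocyte sums in induced tumours were 67.6 to 235 CPM. Neutrophil markers summed to 11.8 to 121 CPM in control and 10.5 to 27.4 CPM in induced tumours, and macrophage markers to 180 to 1299 and 134 to 708 CPM. The part of host cells in the ratio, in the share and in the difference between groups was not tested.

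**Figure D5:**
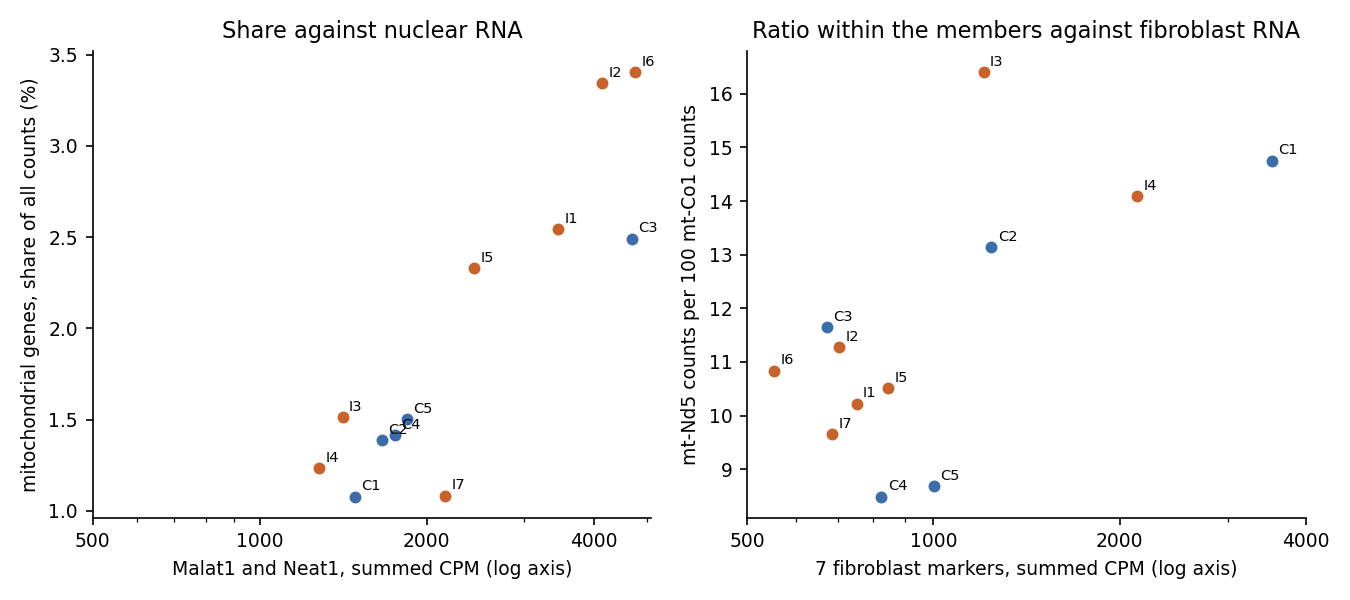
Left, share of all counts on the 32 mitochondrial genes, in percent, against the summed CPM of Malat1 and Neat1 on a log axis. Right, mt-Nd5 counts per 100 mt-Co1 counts against the summed CPM of 7 fibroblast markers on a log axis. Each point is a tumour (C control, I induced). Left, I6, C3, I2, I1 and I5 are highest on both axes, and right, I3, C1, I4 and C2 are.

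Skeletal muscle and brown fat are rich in mitochondria, and their markers were measured in the same libraries. The 15 muscle markers had their highest sums in control 4 (711 CPM) and induced 4 (633 CPM), tumours in which the members took 1.42% and 1.24% of the counts. In induced 6, which had the highest share, they summed to 68.7 CPM, and in induced 2, with a share of 3.34%, to 280 CPM. The brown fat markers Ucp1, Cidea and Elovl3, of which 1 of 3 had enough counts to be tested, summed to 0.385 to 2.03 CPM. The part of muscle or fat RNA in the share was not tested.

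The asparagine tRNA followed the mRNAs less closely than other well-counted members. Among the 13 members with over 1000 counts in all, mt-Tn had the lowest correlation with the mean of the 7 well-counted mRNAs, at 0.676 (n = 12 tumours). For mt-Tp it was 0.936. Each of the 7 mRNAs was left out of the mean it was set against. There mt-Nd1, mt-Nd2, mt-Nd4, mt-Cytb and mt-Nd6 had 0.987 to 0.991, and mt-Co1 and mt-Nd5 0.953. It had 4.44, 2.84, 10.4, 7.72 and 2.78 CPM in the control tumours and 4.47 to 12.9 CPM in the induced tumours. Its highest value was in induced 3, which was also highest for mt-Ta, the alanine tRNA gene beside it. Several members with fewer counts had correlations as low or lower, down to 0.437 for mt-Tg with 12 counts in all. Part of the Cep295 transcript is 91.5% identical to mt-Tn over 71 bases, but 0 of 42 runs of 30 bases in mt-Tn had an identical match. The likeness is not particular to mt-Tn. Cep295 also matched mt-Tl1 at 93.5% over 62 bases on the opposite strand, mt-Ta at 89.8% over 59 and mt-Ty at 88.3% over 60. The correlation of mt-Tl1 was 0.887. Cep295 itself had 966 to 1736 counts and a log2 difference of 0.02, and its correlation with the 7 mRNAs was 0.148.

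The nuclear genes that serve mitochondrial gene expression were taken from lists of known factors. Of 35 genes for transcription, replication and RNA processing of mitochondrial DNA, 20 were higher and 15 lower by estimate, with a median log2 difference of 0.02, and 0 passed the threshold. The helicase Supv3l1, which works in mitochondrial RNA decay, had the smallest p of that list, at a difference of −0.19 (standard error 0.09), followed by Ptcd2, a mitochondrial RNA processing factor, at −0.12 (standard error 0.09), and the transcription factor Tfb2m at 0.13 (standard error 0.11). Of 78 mitochondrial ribosomal protein genes, 43 were higher and 35 lower, with a median of 0.01. Their lowest p values were those of Mrpl46 at −0.20 (standard error 0.09), Mrps27 at −0.15 (standard error 0.10) and Mrps9 at 0.13 (standard error 0.09). Of 78 nuclear genes for respiratory chain subunits tested, 35 were higher and 43 lower. Lowest in p were Sdhb, the iron-sulphur subunit of complex II, at −0.18 (standard error 0.10), Ndufb5 of complex I at −0.17 (standard error 0.11) and Atp5o of the ATP synthase at −0.23 (standard error 0.14). None of these passed the threshold, so the positive estimates of the mitochondrial genes stood beside nuclear partners with a median near 0.

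Enzymes that charge mitochondrial tRNAs with their amino acids were lower by estimate for most members. Of 22 tested, 4 were higher and 18 lower in induced tumours, with a median log2 difference of −0.07, where 49.8% of all genes were higher, and 0 passed the threshold. Sars2, which charges the serine tRNAs, averaged 15.2 ± 0.308 CPM (SD, n = 5) in the control group and 12.4 ± 0.775 CPM (SD, n = 7) in the induced group. Its groups did not overlap, as was the case for 0.0592% of all genes tested. The log2 difference was −0.29 with a standard error of 0.09, an unadjusted p of 0.00644 and an adjusted p of 0.999886 in edgeR. Yars2, the enzyme for tyrosine, had a difference of −0.32 (standard error 0.10, unadjusted p 0.00816 in edgeR), with all 7 induced tumours below the control mean. Nars2, for asparagine, had −0.26 (standard error 0.13). By unadjusted p under 0.05, 2 of 22 were lower, against 1.54% of all genes.

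Of 17 genes that modify or finish mitochondrial tRNAs, 9 were higher and 8 lower, with 0 past the threshold. Gtpbp3, a GTPase that modifies the wobble base, had −0.13 (standard error 0.11), the pseudouridine synthase Pus1 −0.12 (standard error 0.10), and Trnt1, which adds the CCA end, 0.07 (standard error 0.07). Of 10 regulators of mitochondrial biogenesis tested, 6 were higher and 4 lower, and 0 passed the threshold. The lysosomal and metabolic regulator Tfeb had the smallest p of these, an unadjusted 0.04996 in edgeR, at −0.52 (standard error 0.24), followed by the deacetylase Sirt1 at 0.22 (standard error 0.11) and Gabpb1, a subunit of a transcription factor of mitochondrial genes, at 0.17 (standard error 0.10).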

How the data were processed

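Gene expression was measured by RNA-seq in 5 control and 7 induced tumours. Per the labels' protocols, total RNA from a column kit entered a SMARTER mRNA-seq preparation, and GRCm38, also called mm10, is the build in the submitters' processing notes. Aligner, counter, strand and treatment of reads with several matches are not given. The labels' growth and treatment text describes another experiment, on fat cell differentiation, so groups came from titles and the treatment label. The authors deposited whole-number counts for each gene, marked as raw per the file headers, and these were used. They also deposited rlog values on the log2 scale in 12 further columns, and a comparison of their own, which holds a log2 ratio, a signed fold score and raw and adjusted p-values, and none of these were used.

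The tests used edgeR 4.0.16 under R 4.3.3. filterByExpr by group with a minimum count of 10 left 15199 genes and removed 9917. The robust quasi-likelihood F test with TMM factors was two-sided, and p was adjusted by Benjamini-Hochberg across every gene tested. A positive log2 fold change means higher in induced tumours. Library totals are in the report, and a log2 fold change had a standard error of 0.183 in the median gene. Libraries of one group differed beyond sampling noise, with a chi-square per gene of at least 13, so none was another library sequenced again. This check cannot show whether tumours shared a mouse. Gene positions, strands and sequences came from GENCODE on GRCm38, and nuclear copies were searched among its transcripts with BLAST 2.17.0, with a minimum identity of 85%. No protein sequences were used. Symbols of 189 rows came from a reference table by gene ID, and 84 rows kept the ID.

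The members and the gene and marker lists were chosen with earlier results of these data known. All members were named by the rule, and in each nuclear list the 3 members with the smallest p. Genes of likeness were ranked by the correlation of their log2 CPM (prior count 2) with the mean of the 13 mRNAs. Alternatives were other size factors, scaling without mitochondrial genes, DESeq2 1.42.0, limma-voom (limma 3.58.1), other filters, a fit that was not robust, a block for the replicate number and leaving out single libraries. In a test on simulated data drawn from the means and depths of these tumours, among 15306 genes the fit called 55 of 100 genes changed 2-fold and 79 of 100 changed 4-fold. Of 15118 unchanged genes, 6 were called. The changed genes were picked at random among those tested. Standard errors of the members were 0.29 to 0.63, above that of the median gene, so these rates do not hold for the members.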

Additional observations from a re-analysis of the deposited data

Results flagged for a closer look

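Control 3 stood apart from the other control tumours for several members. It had 2121 CPM of mt-Nd1, with the next control tumour at 1123, 1296 CPM of mt-Nd4 (next 698.5), 1603 CPM of mt-Nd5 (next 957.3) and 608.4 CPM of mt-Nd6 (next 279.1). The same tumour was apart for the tRNAs mt-Tl2, at 9.725 CPM (next 3.393), and mt-Tt, at 1.075 CPM (next 0.3632). Control 5 was the only control tumour with counts of mt-Tw, at 0.04713 CPM. Among 72 sets of 5 or 7 values examined, 7 stood out in this way, and chance gives about 3.6. These members vary together, so the 6 values of control 3 are not separate observations.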

How the results depend on the processing

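No member passed the threshold under any alternative that was run, and the smallest adjusted p of a member was 0.728, shared by several members under limma-voom. Without each library in turn, 0 genes passed, 23 to 27 members had a positive estimate, the median log2 fold change of the mRNAs was 0.39 to 0.79, and the difference in share, 0.633 percentage points over all tumours, was 0.433 to 0.862. Estimates turned negative in 5 of 584 cases, in 4 members. They were −0.10 for mt-Ts2 without control 1, −0.07 for mt-Ts2 and −0.025 for mt-Atp8 without induced 2, and −0.14 for mt-Ta and −0.016 for mt-Tc without control 1, control 2, induced 3 and induced 4. The cause was not tested. Leaving out each library gave −0.10 to 0.74 for mt-Ts2 and −0.025 to 0.39 for mt-Atp8.

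The fit without these 4 tumours, which had the highest fibroblast sums, was added after the data were seen. It gave 0 of 27 members past the threshold, 25 with a positive estimate, a median of 0.55 for the mRNAs and a share difference of 0.738. By unadjusted p under 0.05, DESeq2 called 3 of 32 members and limma-voom 9 of 26, with 607 and 995 genes in all. Scaling from nuclear genes alone left the median of the mRNAs at 0.54 and moved that of all genes by 0.003. Tumours with the same number did not deviate together, with correlations of −0.53 to 0.21, so the numbers pair nothing. With the replicate block, over 10 tumours, 0 of 14906 genes and 0 of 24 members passed, and the median was 0.52. The alternative without ribosomal RNA rows was not run, since no such row was among the members. Counts of 22 or fewer per tumour left 6 tRNAs without a test.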

Other observations

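Genes outside the mitochondrial set whose level followed it most closely were ranked over 11715 nuclear genes by the correlation of log2 CPM with the mean of the 13 mitochondrial mRNAs, over 12 tumours. The 10 closest had correlations of 0.934 to 0.977, and without induced 2 and induced 6, the tumours farthest from the median, 0.88 to 0.95. The mean includes the 6 mRNAs of the repeated stretch, and against the 7 well-counted mRNAs alone the same genes had correlations of 0.892 to 0.957. First came Rnf168, a ubiquitin ligase of the DNA damage response, followed by Ano6, a phospholipid scramblase, then Gm10925, the chromosome 1 copy of mt-Atp6, and Magt1, a magnesium transporter. Next were the cyclin gene Ccnd2, Ankrd12, the chromatin remodelling subunit Arid2, Derl2 of endoplasmic reticulum protein degradation, the predicted gene Gm43362, and Gm28438, the chromosome 1 copy of mt-Nd3. All of these were higher in induced tumours by estimate, with log2 differences of 0.12 (Derl2) to 0.79 (Gm10925), and none passed the threshold. They were chosen for following a mean that was itself higher in induced tumours, so their direction is not a separate observation. With this many genes ranked, high correlations are found among them by selection, and all values share the libraries.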
